A study of Daphnia magna with 30 samples.

Results

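In all, 3 transcripts named for glutamate signalling in the annotation of the study were followed across 5 photoperiods in single *Daphnia magna*, a freshwater crustacean. DM10810P1 and DM10654P3 were named as ionotropic glutamate receptors of the kainate type, and DM00966P3 as glutamate decarboxylase. They were chosen by name, and they are 3 of the 14338 *D. magna* probes on the array, each the only probe of its assembled sequence. The study listed DM10810P1 for experimental trial 2, from the animals described here, so the test of its response is not independent of its listing. DM10654P3 and DM00966P3 were listed for experimental trial 1 only, whose animals were not analysed here.

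RNA of 30 whole females was measured on one-colour Agilent arrays, each animal on its own, after 21 days under short days (4L:20D and 8L:16D), an equinox day (12L:12D), long days (20L:4D) or the long-day control (16L:8D), where L and D are the hours of light and of darkness. Each group held 3 chambers with 2 sampled animals each, called A and B. All animals were of a single genotype, from cultures begun with 1 individual, and they were taken within an hour of lights on with whatever their brood pouches held. A single box and lamp served all chambers of a photoperiod, so photoperiod and box cannot be told apart, and every comparison with 16L:8D rests on the same 6 control animals. In RNA of whole animals, fewer cells of a type and less RNA per cell cannot be told apart.

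Glutamate is the excitatory transmitter of the arthropod neuromuscular junction and is also used in the central nervous system. Ionotropic receptors of the kainate class bind it and open a channel for cations, and the class is named for a compound from algae that opens them. Glutamate decarboxylase removes a carboxyl group from glutamate and makes gamma-aminobutyric acid (GABA), the main inhibitory transmitter, so that the same amino acid feeds excitation and inhibition. Glutamine synthetase joins glutamate with ammonia and so clears it.

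The oligonucleotides that measured the 3 transcripts are shown because every value below is the signal of a single probe, and because the receptor probes could have shared sequence. Each is written as the study lists it, with the 3 longest runs common to both receptor probes, of 5 bases each, in capitals.
DM10810P1 (kainate receptor): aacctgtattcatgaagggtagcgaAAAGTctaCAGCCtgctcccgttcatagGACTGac
DM10654P3 (kainate receptor): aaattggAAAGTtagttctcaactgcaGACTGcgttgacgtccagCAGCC
DM00966P3 (glutamate decarboxylase): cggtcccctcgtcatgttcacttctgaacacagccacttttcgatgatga
The receptor probes shared no run longer than 5 bases, and none of the probes shown shared a run of 15 bases, on either strand, with any other of the 958 probes in the list. DM10810P1 shared longer runs with the decarboxylase probe, of 6 bases as written and 8 on the reverse strand. The marked runs are therefore no sign of sequence particular to the receptor probes. The DM10810P1 probe is 60 bases long and the others are 50, and the receptor probes have a GC content of 48.3% for DM10810P1 and 48.0% for DM10654P3. As written, DM10810P1 held a stop codon in each of its 3 reading frames, and 1 frame of its reverse complement was open. The place of the probes in their transcripts and in the genome was not determined here.

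The arrays had 10568 to 12895 probes well above background (73.7% to 89.9%), and precision is limited by how many arrays there were. Levels are log2 values of the background-subtracted signal, set so that 0 is the 75th percentile of the signals on that array. DM10810P1 was a bright probe, with a processed signal between 380.4 and 11570.5. DM10654P3 lay between 16.7 and 41.3 and DM00966P3 between 17.0 and 57.4. All 3 were well above background on all 30 arrays and saturated on 0, but on the log2 scale DM10654P3 stood only 0.45 to 2.45, and DM00966P3 0.75 to 3.36, above the lowest signal that the software called well above background on the same array. The 2 probes named as rhodopsin-type receptors in the list used here, markers of the eye, were also well above background on all 30 arrays.

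Expression of the kainate receptor transcript DM10810P1 was lower relative to 16L:8D in both short-day photoperiods and at the equinox, and was lowest at 12L:12D. At 4L:20D its level had a lowest value of -0.40, a median of 1.95 and a highest of 2.55 (mean 1.55 ± 1.14, SD, n = 6). At 8L:16D these were -0.32, 0.86 and 2.23 (mean 0.87 ± 1.07), and at 12L:12D -0.54, -0.10 and 0.58 (mean -0.09 ± 0.45). The long-day animals were higher, with 0.24, 3.18 and 4.43 at 16L:8D (mean 2.94 ± 1.52) and 1.55, 3.29 and 4.23 at 20L:4D (mean 3.14 ± 1.08). In both short-day photoperiods and at the equinox, all 6 animals lay below the mean of the control animals. At 8L:16D and 12L:12D they overlapped with the control animals only through animal B of control chamber 2, at 0.24, since the next control animal stood at 2.36, while at 4L:20D some animals also lay above 2.36. The animals of 12L:12D and 20L:4D did not overlap, which held for 5.27% of probes with a value on all arrays.

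**Figure D1:**
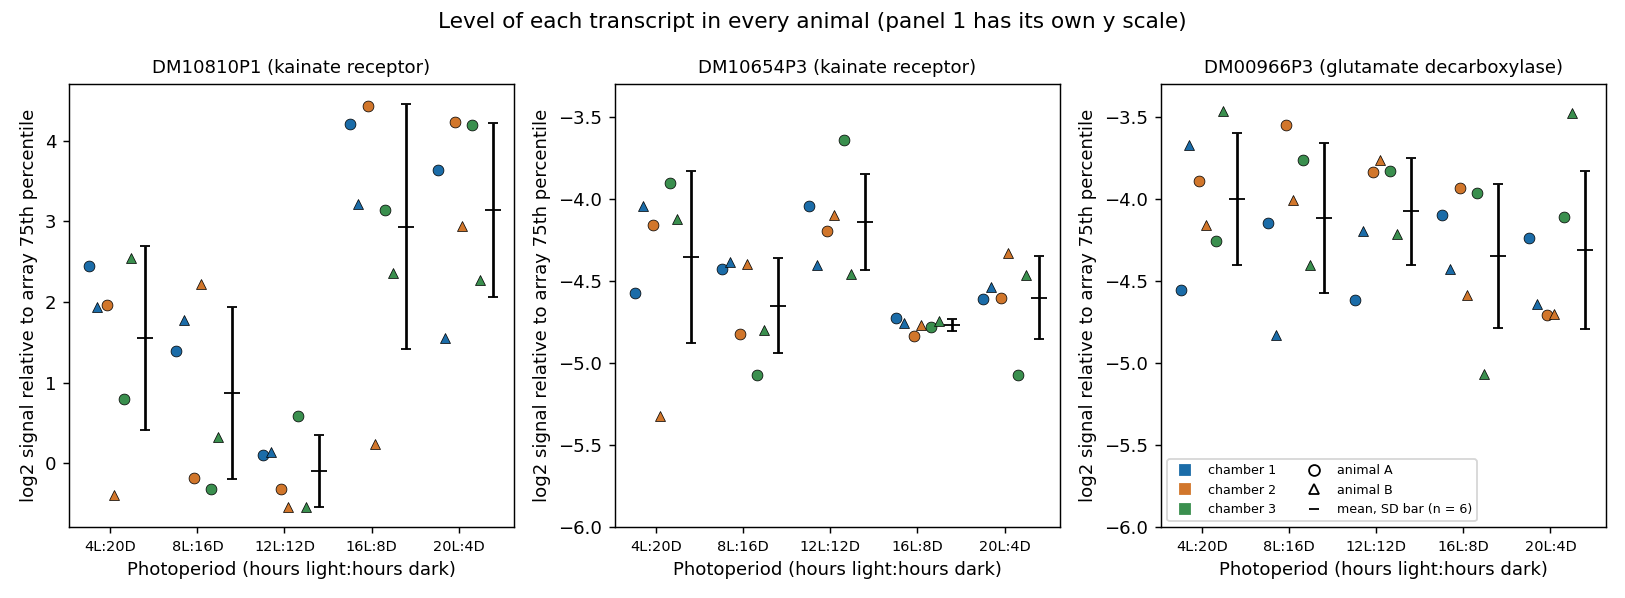
Level of each transcript in every animal, as log2 signal relative to the 75th percentile of the array (y axis; the first panel has its own scale), by photoperiod in hours of light and dark (x axis), with colours for chambers, circles for animals A, triangles for animals B, and a bar for the mean and SD of 6 animals. DM10810P1 was lowest at 12L:12D, between -0.54 and 0.58, and DM10654P3 was nearly the same in all control animals, between -4.83 and -4.73.

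DM10810P1 responded to photoperiod with a limma adjusted p of 0.00683 (unadjusted 8.58e-06), rank 18 among all probes. It was the only one of these transcripts to respond, which took an unadjusted p under 0.01 and was true of 11.4% of all probes. It fell by 1.39 on the log2 scale at 4L:20D (SE 0.52, 2.61-fold, limma adjusted p = 0.0936), where 3.05% of all probes were called lower. It fell by 2.06 at 8L:16D (SE 0.52, 4.18-fold, limma adjusted p = 0.0947), where 2.36% were called lower. It fell by 3.03 at 12L:12D (SE 0.52, 8.17-fold, limma adjusted p = 0.0137), where 3.56% were called lower. A call needed a response, an unadjusted p under 0.05 and a change of at least 1.5-fold, and of these differences only that at 12L:12D also passed after adjustment over all probes. At 20L:4D the difference was 0.20 (SE 0.52), with a 95% interval from -0.88 to 1.28, which leaves room for a level 2.43-fold higher. The 4L:20D call did not hold with the slide as a block (-1.20), with only the 12 arrays of the pair, without chamber 2 of 4L:20D or without chamber 1 of 16L:8D, and the 8L:16D call did not hold once the signal of the E1A spike-in controls entered the fit (-1.29).

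**Figure D2:**
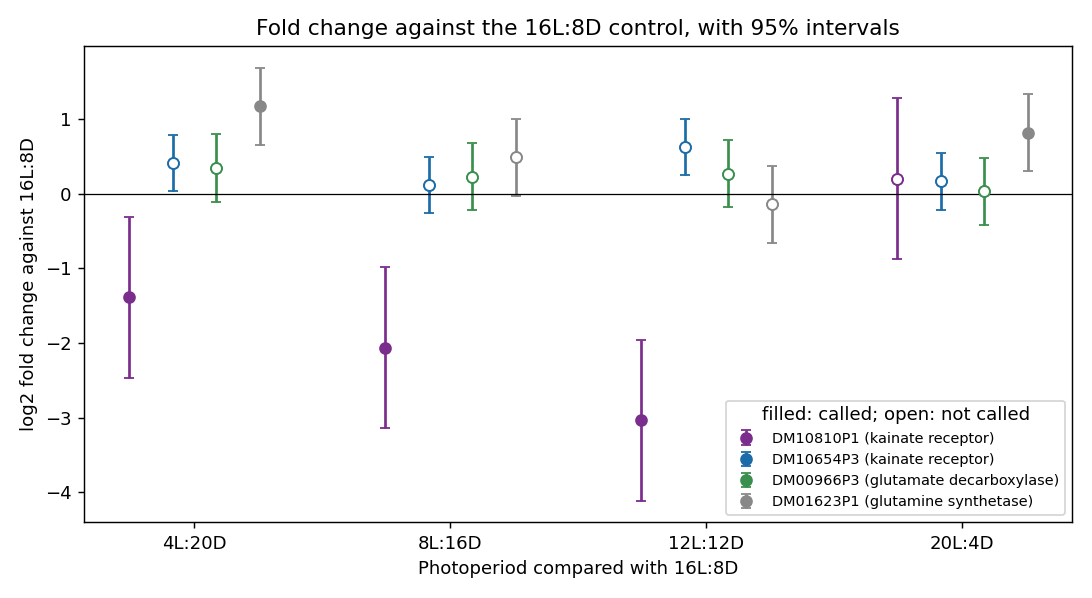
log2 fold change against 16L:8D (y axis) of the 3 transcripts and of glutamine synthetase at the other 4 photoperiods (x axis), with 95% intervals from limma, filled where called and open where not. The DM10810P1 intervals lie below 0 in the short-day and equinox photoperiods, and span 0 at 20L:4D.

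With chambers as the units, the 3 chamber means of DM10810P1 at 4L:20D (0.78 to 2.19), at 8L:16D (0.01 to 1.58) and at 12L:12D (-0.43 to 0.13) all lay below those at 16L:8D (2.34 to 3.72). Each of these 3 comparisons gave an exact two-sided permutation p of 0.1, the smallest that 3 chambers against 3 allow. At 20L:4D the chamber means lay between 2.59 and 3.59 (exact permutation p = 0.8).

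In the order of the levels, 20L:4D came first and the control next, then 4L:20D ahead of 8L:16D, with 12L:12D last. Neighbours in that order did not differ past the adjusted threshold. The step between the control and 4L:20D was 1.39 (limma adjusted p = 0.0936), that between 4L:20D and 8L:16D was 0.68 (adjusted p = 0.579), and that between 8L:16D and 12L:12D was 0.97 (adjusted p = 0.603). Among the pairs that are not neighbours, 12L:12D was 1.65 below 4L:20D (unadjusted p = 0.00452, limma adjusted p = 0.131), so the lowest point in the middle of the light range was not established after adjustment. The mean of the short-day and equinox photoperiods against that of the long-day photoperiods differed by -2.26 (SE 0.34, 4.80-fold lower, limma adjusted p = 0.000694), a contrast in which 13.4% of all probes had an adjusted p under 0.05, and 8.61% of all probes were lower. This grouping of photoperiods follows the paper and was proposed with results of these data known. The contrast therefore describes a size with its error and is not an independent test. A straight line through hours of light rose by 0.13 per hour (SE 0.045, unadjusted p = 0.00682, limma adjusted p = 0.109), and 19.7% of all probes had a slope at an unadjusted p under 0.05.

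Animals that shared a chamber differed widely in DM10810P1. The SD between the animals of a chamber was 1.23 on the log2 scale and that between the chamber means of a photoperiod 0.63, and the test for a difference between chambers gave an unadjusted limma p of 0.807. The SD between spots of probes with 2 spots at a like signal, within 2-fold of the mean signal of DM10810P1, was 0.066 over 3212 pairs of spots of 201 probes. The spread between animals was therefore many times that between spots of an array. Control chamber 2 held the widest pair, with 4.43 in animal A and 0.24 in animal B.

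Animal A was above animal B in all 6 long-day chambers and in 4 of the 9 short-day and equinox chambers. Animals A averaged 4.02 ± 0.34 at 20L:4D and 3.93 ± 0.69 at 16L:8D (SD, n = 3 each), and animals B 2.26 ± 0.70 and 1.94 ± 1.53 in the same order. The difference from 16L:8D at 4L:20D was -2.19 among animals A and -0.58 among animals B, at 8L:16D it was -3.63 and -0.50, and at 12L:12D -3.80 and -2.26 in the same order. The interaction of photoperiod and letter had an unadjusted limma p of 0.0436 and an adjusted p of 0.932, where 5.32% of all probes had an unadjusted p under 0.05. Per the methods, both animals of a chamber were drawn at random among those whose RNA was of sufficient quality, and what decided which of them was A was not given in the sources used here.

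Both control animals hybridized on the slide of the second scan day were A, with 4.21 and 4.43, and the 4 other control animals ranged between 0.24 and 3.22. On the first scan day the difference from 16L:8D was -0.69 at 4L:20D, -1.37 at 8L:16D and -2.47 at 12L:12D, and 0.84 at 20L:4D. On the second scan day 1 animal of 12L:12D stood at 0.58, with a difference of -3.74, and 2 animals of 20L:4D differed by -1.07. The direction at 20L:4D thus differed between scan days, and no 4L:20D or 8L:16D animal was scanned on the second. The 20L:4D animals of the second day were an animal A at 4.23 and an animal B at 2.28, beside controls that were both A. Most control animals of the first day were B, so these differences mix letter with scan day. With scan day as a block all 3 calls were kept, at -1.20 for 4L:20D and -2.94 for 12L:12D.

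Within photoperiods, DM10810P1 followed one of the main axes along which the animals differed from each other. Its deviations from the photoperiod means had a Pearson r of 0.88 with position on the second principal component of the spread within photoperiods, and -0.06 with the first, over 30 animals whose positions come from the same arrays. These components held 18.9% and 41.3% of the spread, and together they accounted for 77.5% of the variance of DM10810P1 within photoperiods. Positions on the second component ranged from -77.9 to 50.8 at 4L:20D, from -78.0 to 77.8 at 8L:16D, from -73.8 to -35.3 at 12L:12D, from -57.5 to 71.8 at 16L:8D and from 7.67 to 80.5 at 20L:4D. With both positions as covariates, the response of DM10810P1 had an unadjusted limma p of 0.129, and its log2 fold changes were -0.50 at 4L:20D, -0.74 at 8L:16D and -0.90 at 12L:12D, none called. Whether these positions are a part of the response to photoperiod or separate from it cannot be told apart here.

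Most probes named for eggs were called lower in the photoperiods where DM10810P1 was. Of the 8 such probes in the study's list, for vitellogenin (the yolk precursor), vitelline membrane protein and chorion peroxidase (which hardens the egg shell in insects), 5 were called lower at 4L:20D, 6 at 8L:16D and 5 at 12L:12D, where 1 vitellogenin probe was called higher. Among all probes 3.05% were called lower at 4L:20D, 2.36% at 8L:16D and 3.56% at 12L:12D. The vitellogenin probe DM01555P3 had log2 fold changes of 0.97 at 4L:20D, 0.77 at 8L:16D and 1.97, called, at 12L:12D, and the vitellogenin probe DM00375P2, not called in any photoperiod, had -0.13, -0.07 and -0.20 in the same order. The median log2 fold change of the list was -1.61, -1.46 and -1.58 at those photoperiods, against -0.06, -0.03 and -0.06 over all probes, and 0 of the 8 were called at 20L:4D, where 0.809% of all probes were. With dim signals set to the lowest signal well above background on their array, these medians were -1.37, -1.39 and -1.58. The study listed all of these probes except DM00375P2 from these animals, so their counts and medians are not independent of that listing. DM00375P2 was listed for experimental trial 1 only. The mean level of the 8 probes ranged from -3.36 to -2.42 at 4L:20D, from -3.44 to -1.43 at 8L:16D, from -3.29 to -2.36 at 12L:12D, from -3.17 to -0.15 at 16L:8D and from -2.83 to 0.09 at 20L:4D. Over the 30 animals this mean had a Pearson r of 0.85 with DM10810P1 within photoperiods, from probes on the same arrays, and the control animal lowest in DM10810P1 was also the control animal lowest in this list. Of the 8, the chorion peroxidase probe DM08907P2 had the widest difference, -6.81 at 12L:12D. The 4 chorion peroxidase probes were well above background on 9 to 19 of the 30 arrays. The part of these probes in the DM10810P1 result was not tested.

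**Figure D3:**
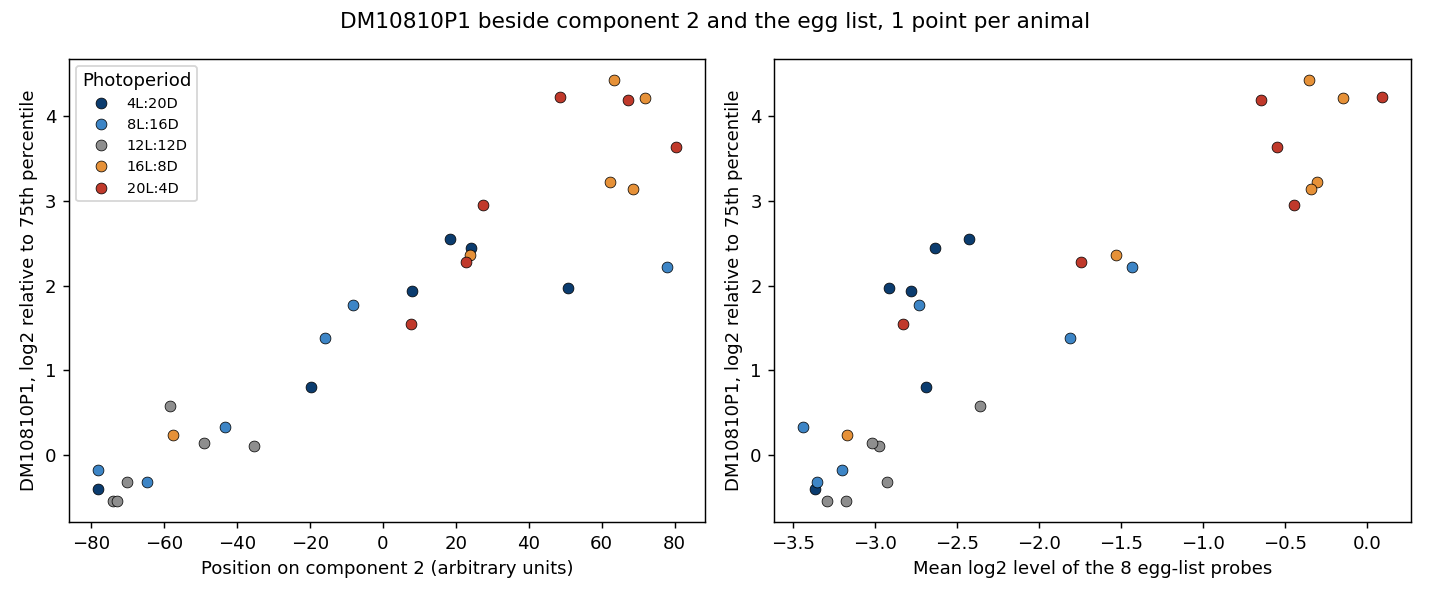
Level of DM10810P1 in each of 30 animals (y axis, log2 relative to the 75th percentile of the array) against position on the second component of the spread within photoperiods (left, arbitrary units) and against the mean log2 level of the 8 egg-list probes (right), coloured by photoperiod. The 12L:12D animals lie low on all axes, and 1 control animal, at 0.24, lies among them.

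The probe most like DM10810P1 over the 30 animals was DM02344P1, a hypothetical protein, with a Pearson r of 0.97 among 11766 other probes that had a value on all arrays and were well above background on at least 15. The next were DM04463P1, named as putative cathepsin O, a cysteine protease (r = 0.94), DM02197P1, named as a lipid-binding protein of mitochondrial ATP synthase (r = 0.94), DM03155P1, named as group XV phospholipase A2, an enzyme of lysosomes in mammals (r = 0.93), and DM09711P3, an uncharacterized protein (r = 0.93). At 12L:12D these 5 probes had log2 fold changes of -3.55, -3.28, -1.08, -4.36 and -2.07, a description only, since likeness over all 30 animals takes in the differences between photoperiods. The correlations remained between 0.86 and 0.93 over deviations from photoperiod means. In all, 102 probes had an r of at least 0.8 with DM10810P1, and 122 an r of -0.8 or lower.

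**Figure D4:**
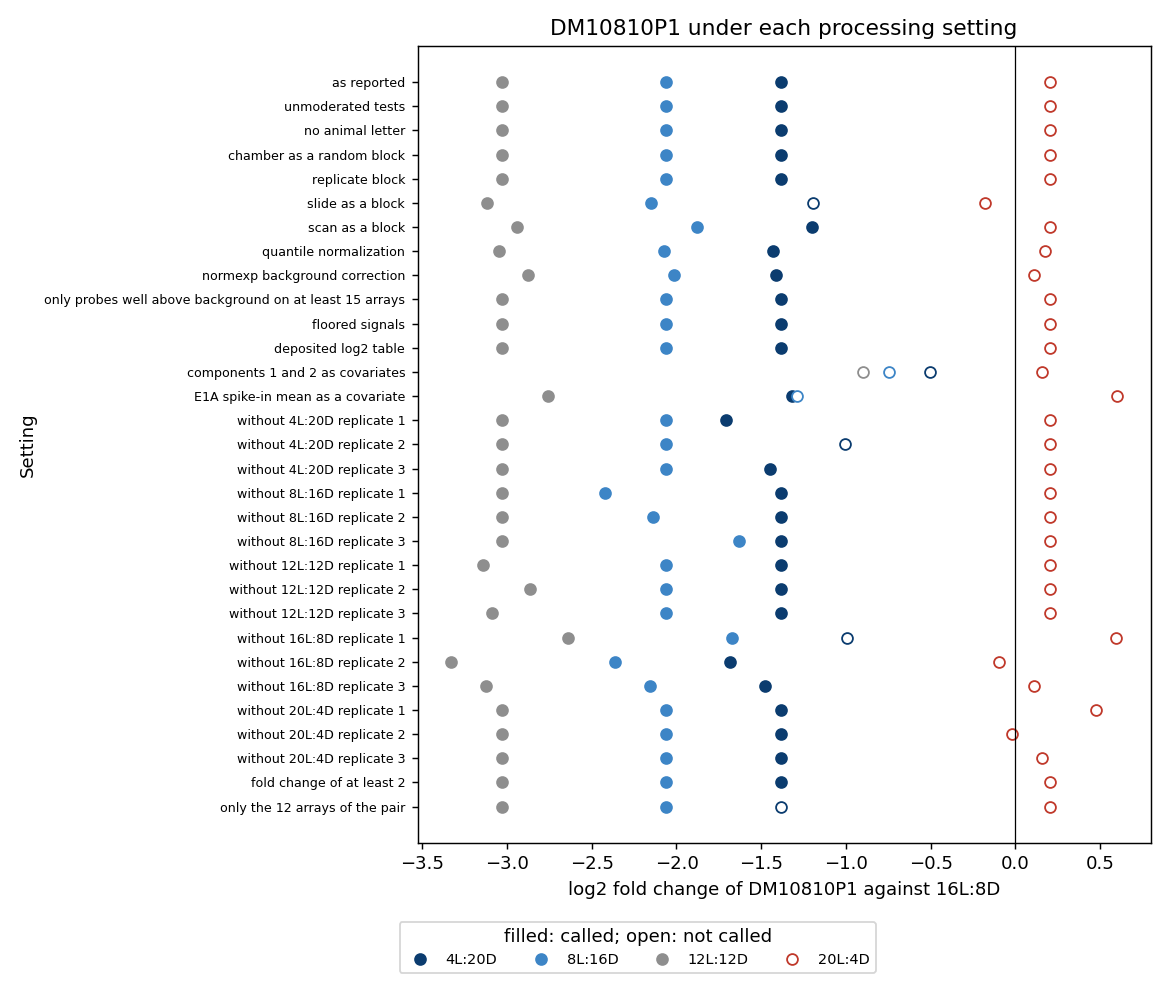
log2 fold change of DM10810P1 against 16L:8D (x axis) under each processing setting and with each chamber left out (y axis), coloured by photoperiod, filled where called and open where not. The values at 12L:12D stay between -3.33 and -2.64 with each chamber left out, and all move toward 0 with the positions on components 1 and 2 as covariates.

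The other kainate receptor transcript, DM10654P3, did not pass the test for photoperiod (limma unadjusted p of 0.0165, adjusted p of 0.111), and no photoperiod was called. Its level had a lowest value of -5.32, a median of -4.14 and a highest of -3.90 at 4L:20D (mean -4.35 ± 0.52, SD, n = 6). At 8L:16D these were -5.07, -4.61 and -4.38 (mean -4.65 ± 0.29), and at 12L:12D -4.46, -4.15 and -3.64 (mean -4.14 ± 0.29). At 16L:8D they were -4.83, -4.76 and -4.73 (mean -4.77 ± 0.04), and at 20L:4D -5.07, -4.57 and -4.33 (mean -4.60 ± 0.25). The control animals thus lay within 0.11 of each other, a spread below that of any other photoperiod and below the SD of 0.32 between the spots of probes with 2 spots at a like signal (5253 pairs of spots of 325 probes).

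The difference from 16L:8D was widest at 12L:12D, in the direction opposite to that of DM10810P1. It was 0.63 (SE 0.18, 1.54-fold higher, unadjusted p = 0.00237, limma adjusted p = 0.0411), and the animals of 12L:12D and 16L:8D did not overlap, as for 5.42% of probes with a value on all arrays. For 7.25% of all probes the adjusted p of this contrast was under 0.05, and DM10654P3 was not called because a call also takes a response. The differences were 0.41 at 4L:20D, 0.12 at 8L:16D and 0.17 at 20L:4D (SE 0.18 each), with limma adjusted p of 0.149, 0.787 and 0.883. The exact two-sided permutation p over chambers was 0.1 at 4L:20D and at 12L:12D, the smallest possible. Animal B of chamber 2 at 4L:20D, at -5.32, was the lowest of all 30, and without that chamber the response had an unadjusted limma p of 0.000530, and the fold changes of 0.61 at 4L:20D and 0.63 at 12L:12D were called. With normexp background correction, whose offset shrinks the differences of dim probes, the value at 12L:12D was 0.15.

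For DM10654P3 the levels ran downward with 12L:12D first and 4L:20D next, then 20L:4D ahead of 8L:16D, and the control last, and neighbours differed by 0.05 to 0.25, with limma adjusted p between 0.549 and 0.942. The short-day and equinox photoperiods were above the long-day photoperiods by 0.30 (SE 0.12, unadjusted p = 0.0173, limma adjusted p = 0.0883), short of the adjusted threshold. The slope through hours of light was -0.015 per hour (SE 0.012, limma adjusted p = 0.496). The SD between the animals of a chamber was 0.33, close to that between duplicate spots. No probe had an r of 0.8 or above with DM10654P3, and the closest, DM02890P1, which carries no name in the sources used here, had an r of 0.72 over the 30 animals.

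The glutamate decarboxylase transcript, DM00966P3, did not pass the test for photoperiod (limma unadjusted p of 0.443, adjusted p of 0.598), and no photoperiod was called. Its level had a lowest value of -4.56, a median of -4.03 and a highest of -3.47 at 4L:20D (mean -4.00 ± 0.40, SD, n = 6). At 8L:16D these were -4.83, -4.08 and -3.55 (mean -4.12 ± 0.46), and at 12L:12D -4.62, -4.02 and -3.77 (mean -4.08 ± 0.33). At 16L:8D they were -5.07, -4.26 and -3.94 (mean -4.35 ± 0.44), and at 20L:4D -4.71, -4.44 and -3.48 (mean -4.31 ± 0.48). The animals of all photoperiods overlapped. The differences from the control were 0.35 at 4L:20D, 0.23 at 8L:16D, 0.27 at 12L:12D and 0.03 at 20L:4D (SE 0.22 each), with limma adjusted p between 0.321 and 0.982. When each chamber was dropped in turn, the value lay between 0.26 and 0.40 at 4L:20D, between 0.06 and 0.42 at 8L:16D, between 0.13 and 0.43 at 12L:12D and between -0.23 and 0.23 at 20L:4D. At 4L:20D the difference was -0.24 among animals A and 0.93 among animals B. Over chambers the exact two-sided permutation p was 0.1 at 4L:20D and between 0.3 and 0.9 in the other photoperiods.

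At this precision a change of DM00966P3 could not be bounded tightly. The 95% interval at 4L:20D ran from -0.11 to 0.80, which leaves room for a level 1.74-fold higher, and at 20L:4D it ran from -0.42 to 0.48. The levels ran downward with 4L:20D first and 12L:12D next, then 8L:16D ahead of 20L:4D, and the control last, and neighbours differed by 0.03 to 0.20, with limma adjusted p between 0.749 and 0.982. The contrast of short and equinox with long days was 0.27 (SE 0.14, limma adjusted p = 0.216). The SD between the animals of a chamber was 0.42, against 0.27 between duplicate spots at a like signal. Animal A was above animal B in 9 of the 15 chambers, among them all 3 of 16L:8D and all 3 of 8L:16D. The interaction of photoperiod and letter had an unadjusted limma p of 0.0685 and an adjusted p of 0.932. For 5.32% of all probes the unadjusted p was under 0.05. The probe most like DM00966P3 was DM08836P1, a hypothetical protein, with an r of 0.80 over the 30 animals.

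Among the 958 probes in the study's list, 1 more was named for glutamate metabolism or signalling. This was DM01623P1 for glutamine synthetase, which the study also listed from these animals. Probes outside that list had no names in the sources used here, so others of this kind on the array could not be counted. Its level had a lowest value of 5.25, a median of 5.77 and a highest of 6.30 at 4L:20D, against 3.91, 4.54 and 5.19 at 16L:8D. At 4L:20D no animal overlapped with the control animals, as for 4.56% of probes. It rose by 1.17 (SE 0.25, 2.26-fold, limma adjusted p = 0.0149) at 4L:20D, where 1.53% of all probes were called higher, and was also called at 20L:4D, by 0.82 (SE 0.25, 1.77-fold, limma adjusted p = 0.557), where 0.349% were. It was not called at 8L:16D, at 0.49, or at 12L:12D, at -0.14. Glutamine synthetase was thus called higher at both ends of the light range, while DM10810P1 was called lower at the short end and in the middle. Over these 4 probes, 1 was called lower in both short-day photoperiods and at the equinox, and 1 was called higher at 4L:20D and at 20L:4D. Their median log2 fold change was 0.38 at 4L:20D, 0.17 at 8L:16D, 0.07 at 12L:12D and 0.18 at 20L:4D, beside medians of -0.06 to -0.02 over all probes. Since DM10810P1 and DM01623P1 were listed from these animals, these counts and medians are not independent of that listing.

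No pair of the 3 transcripts passed a test of correlation across chamber means. Over the 15 chamber means, the level of DM10810P1 had a Pearson r of -0.38 with DM10654P3 (Spearman rho -0.35, permutation p of 0.160 and 0.203) and of -0.43 with DM00966P3 (rho -0.44, permutation p of 0.111 and 0.102). The level of DM10654P3 had an r of 0.15 with DM00966P3 (rho 0.11, permutation p of 0.588 and 0.705). Adjusted over the 3 pairs, the permutation p of r were 0.240, 0.240 and 0.588. Without the 2 chambers farthest from the median the r were -0.22, -0.33 and -0.07.

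Over deviations of the chambers from their photoperiod means, the receptor transcripts had an r of 0.62 (rho 0.64, permutation p of 0.0116 and 0.0125, adjusted 0.0349 and 0.0374). This relation rested on a few chambers, since without the 2 farthest the r was 0.32 (permutation p = 0.285), and an exact permutation of the chambers within photoperiods gave p = 0.0711. The other pairs had r of -0.23 and -0.22 (permutation p of 0.401 and 0.425, adjusted 0.425 for both).

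Of the 5 probes for light input and clock proteins in the list used here, 1 had the calls of DM10810P1. This was DM09476P2, named as an F-box and leucine-rich repeat protein, which fell by 1.82 at 4L:20D, 1.85 at 8L:16D and 1.86 at 12L:12D, and was -0.46, not called, at 20L:4D. Of all probes, 3.05% were called lower at 4L:20D, 2.36% at 8L:16D and 3.56% at 12L:12D. Both period probes, for a circadian repressor in insects, were called higher at 20L:4D, by 0.67 for DM09904P4 and 0.93 for DM14516P3, and were not called elsewhere, with values between -0.43 and 0.13. Of all probes, 0.349% were called higher at 20L:4D. The study listed DM09476P2 and both period probes from these animals, so their calls are not independent of that listing. Neither rhodopsin-type probe was called in any photoperiod, with values of -0.34 to 0.10 for DM12611P4 and -0.09 to 0.11 for DM06155P2. In the list used here these rhodopsin-type probes were given for experimental trial 1 only. From the animals described here, the paper also reports a receptor of the same name as DM12611P4 and a blue wavelength opsin. It describes small but significant decreases of both in short days. At 20L:4D, where the period probes were higher, none of the 3 glutamate transcripts was called, as for all but 0.809% of the probes.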

How the data were processed

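The authors extracted a fluorescence intensity per spot with Agilent Feature Extraction and deposited it as a background-subtracted processed signal. The methods and labels give version 9.5.1 and the file headers 10.7.3.1. A second deposited table holds log2 values, percentile-scaled and median-centred by the authors, and served as an alternative. Each array had 15744 spots. Control spots (536 per array) and outliers (188 in all) were dropped and a probe's spots averaged. Levels are log2 signals minus the log2 of each array's 75th percentile (477 to 705), and dim probes were kept.

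The model, fitted with limma 3.58.1 (R 4.3.3), held the terms photoperiod, letter of the animal, and photoperiod by letter. Following the methods, a response took an unadjusted p under 0.01, and a call also took a contrast with 16L:8D whose unadjusted p was under 0.05 and whose size was 1.5-fold or more. Benjamini-Hochberg adjustment ran over all 14338 probes, and an SE is that of limma. The fit takes the 30 animals as separate, with chamber as a random block as an alternative. Permutation tests used 100000 draws unless exact. On simulated data with 200 changed probes, 89.5% were called. That rate holds only for the sizes of change simulated there. Sensitivity to differences as small as those of the dim probes was not tested. Python 3.11.15, scipy 1.17.1 and statmod 1.5.0 were also used. Alternatives were unmoderated tests, no letter, chamber, replicate number, slide or scan day as a block, other normalizations and filters, covariates, only the arrays of a pair, a 2-fold threshold and leaving out each chamber.

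The members, the gene lists and the contrast of short and equinox with long days were chosen with earlier results of these data known. Named were the 3 members, probes named for glutamate, light or eggs by the study, and the 5 probes most alike in level to each member, of which the first or all are given. Gene names are those of the study, since the scanner files hold none.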

Additional observations from a re-analysis of the deposited data

Results flagged for a closer look

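In 1 of 20 sets of 6 animals (4 probes, 5 photoperiods), an animal stood apart by Dixon's test, and chance gives about 1 in 20. This was DM10654P3 in animal A of chamber 3 at 20L:4D, at -5.07, where the gap to the next animal was 0.627 of the range, against a critical value of 0.625. Without that chamber the difference between short and equinox days and long days was 0.26 for DM10654P3, no longer past an unadjusted p of 0.05 (limma, unadjusted p = 0.0541). The lowest levels of DM10810P1 at 4L:20D and 16L:8D, each in animal B of chamber 2, did not pass this test.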

How the results depend on the processing

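Of 627 values under an alternative, 599 stayed on their side of the threshold, 15 were lost and 13 were gained, and no called value changed sign. For DM10810P1, the positions on components 1 and 2 as covariates gave a response p of 0.129, fold changes of -0.50 at 4L:20D, -0.74 at 8L:16D and -0.90 at 12L:12D, and a slope of 0.037 per hour, none past its threshold. The difference between short and equinox days and long days was then -0.79 (limma unadjusted p = 0.0124, adjusted p = 0.571). The 4L:20D call was lost with slide as a block (-1.20) and with only the 12 arrays of the pair (-1.39), and the 8L:16D call with the E1A spike-in mean as a covariate (-1.29). With each chamber left out, 4L:20D lay between -1.71 and -0.996, and the call was lost without chamber 2 of 4L:20D and without chamber 1 of 16L:8D.

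For DM10654P3, the response p was 0.00465 and the 12L:12D value 0.91, called, with the component positions, and 0.63, called, with only the 12 arrays of the pair. The short and equinox difference was 0.23 with slide as a block. With each chamber left out, the response p lay between 0.000530 and 0.0567, the value at 4L:20D between 0.24 and 0.61, at 12L:12D between 0.58 and 0.67, and the short and equinox difference between 0.25 and 0.37. For DM00966P3, the slope passed an unadjusted p of 0.05 with slide (-0.035) or scan (-0.030) as a block, and the short and equinox difference with scan as a block (0.33). With each chamber left out, the slope lay between -0.033 and -0.014 and passed in 1 of 15 fits. The short and equinox difference lay between 0.17 and 0.39 and passed in 3 of 15. The correlation of the receptor transcripts within photoperiods was 0.32 without 2 chambers, 0.40 with quantile normalization, and 0.62 with an exact permutation within photoperiods (p = 0.0711, adjusted p = 0.213), chosen after seeing the data. The cause of these shifts was not tested.

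With replicate number as a block in place of the letter, the response p was 7.05e-05 for DM10810P1, 0.0202 for DM10654P3 and 0.531 for DM00966P3, and no call changed. Over all probes 1622 then responded, against 1640. Of 12 pairs of like-numbered chambers with 16L:8D, 6 had an r over 0.1 (median 0.086, range -0.37 to 0.23), all 3 of 4L:20D among them, against 5 of 24 pairs of unlike numbers (median -0.055). Since not every pair was over 0.1 and no source ties the numbers to a shared batch, they were taken as names only. The count that responded was 374 with the component positions, and 1063, 1077 and 1068 without chamber 3 or 2 of 12L:12D or chamber 3 of 16L:8D. The counts of probes called in either direction, against which the members' calls are read, moved too. At 4L:20D the count was 658, and 398 without chamber 3 of 4L:20D or 409 without chamber 3 of 16L:8D. At 8L:16D it was 594, and 297 or 372 without chamber 1 or 3 of 16L:8D. At 12L:12D it was 903, and 565 or 584 without chamber 2 or 3 of 12L:12D, and 595 without chamber 3 of 16L:8D. At 20L:4D it was 116, and 302 with slide as a block, 203 with the E1A mean, 485 without chamber 2 of 20L:4D and 77 without chamber 2 of 16L:8D. In that order of photoperiods the counts were 389, 339, 541 and 45 with normexp background correction, and 132, 79, 89 and 61 with the component positions. For the dim probes the signal over background limits what can be seen.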
